A study of Mus musculus with 6 samples.

Results

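Retinoid enzymes and carriers, the genes that make, move and break down retinoic acid, were followed in RNA-seq libraries of isolated pancreatic islets from 12-week-old mice with and without Neurod1 in beta cells. A total of 9 of the 23284 genes in the count tables were taken by symbol: Adh1, Rdh10 and Dhrs3 (retinol and retinaldehyde), Aldh1a1, Aldh1a2 and Aldh1a3 (synthesis of retinoic acid), Cyp26a1 and Cyp26b1 (its breakdown) and Stra6 (uptake of retinol). The genes were chosen by function, but with the knockout and control counts of these same libraries already known, in which Aldh1a3 stood out. Differences between the groups are therefore given as a description, and an adjusted p shows where a gene lay in the fit over all genes. Of the 9 genes 8 passed the filter on low counts, and Stra6 did not.

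The knockout group was Neurod1-floxed/floxed with Rip-Cre+, in which the rat insulin promoter drives Cre in beta cells. The control group was Neurod1-floxed/floxed with no Cre, and the labels give C56BL/J as the strain of both. There were 3 knockout libraries (4, 5 and 6) and 3 control libraries (7, 10 and 16), and values are given below in this order unless a library is named. All mice were 12 weeks old, so the floxed alleles and the age were shared, while Cre and the deletion went together and cannot be told apart. Nothing in the labels tells if a library is 1 mouse or a pool, and a p-value then measures the spread between these libraries, which may be technical.

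In this pathway retinol enters cells through the receptor Stra6 and is oxidised to retinaldehyde by Rdh10 and by alcohol dehydrogenases such as Adh1, while Dhrs3 turns retinaldehyde back into retinol. The aldehyde dehydrogenases of the Aldh1a group then make retinoic acid, which binds nuclear receptors, and the Cyp26 enzymes oxidise it to inactive forms. Retinoic acid patterns the embryonic pancreas and is needed for endocrine differentiation, and Aldh1a3 is used as a marker of beta cells that have lost maturity. Cyp26a1 is itself a textbook gene induced by retinoic acid, through direct repeats of the half-site of retinoic acid receptors in its promoter.

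Cyp26a1 and Cyp26b1 encode enzymes of the same step. For these genes the 250 bases before each RefSeq start site are shown, in build GRCm38.p6, 5′ to 3′ on the gene's strand. The Cyp26a1 window lies at chr19:37697558-37697807 on the plus strand and the Cyp26b1 window at chr6:84593811-84594060 on the minus strand. Capitals mark a pair of half-sites in the same direction with 5 bases between them, where the half-site searched was AGGTCA or AGTTCA or GGGTCA or GGTTCA on either strand.
Cyp26a1: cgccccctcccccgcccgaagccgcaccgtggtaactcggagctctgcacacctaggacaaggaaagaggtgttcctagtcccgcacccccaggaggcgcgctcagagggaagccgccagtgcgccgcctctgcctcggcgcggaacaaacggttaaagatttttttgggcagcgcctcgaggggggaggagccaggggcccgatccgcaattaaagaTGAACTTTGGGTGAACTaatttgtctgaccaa
Cyp26b1: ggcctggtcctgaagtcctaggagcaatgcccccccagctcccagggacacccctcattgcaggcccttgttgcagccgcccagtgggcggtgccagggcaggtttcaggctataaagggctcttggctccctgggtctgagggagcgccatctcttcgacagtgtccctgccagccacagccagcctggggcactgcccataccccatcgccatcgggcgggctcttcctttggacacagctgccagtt
The match in Cyp26a1 runs from position -32 to -16 before the start site and reads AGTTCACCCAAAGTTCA on the opposite strand. Such a pair was in 29 of 32851 start-site windows of this length (0.0883%), and the same half-sites 2 bases apart were in 0.174% of them. No match of either spacing was found in the other 12 windows of the 7 genes with an entry, Aldh1a1, Aldh1a2, Cyp26b1, Adh1, Dhrs3 and Stra6 besides Cyp26a1, which says only that these letters are not in those windows. A match is a description of the sequence, and no binding was measured.

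Total counts ranged from 12206393 to 20412435 per library. Neurod1 had 389 to 463 counts in knockout and 2049 to 3839 in control libraries, a log2 fold change of -2.53 (SE 0.13), so the targeted gene followed the labels. Markers of acinar cells summed to 4940 to 14500 CPM (counts per 1e+06 counts after TMM scaling) in knockout and 13800 to 49500 in control libraries (19 genes). Those of endothelial cells summed to 618 to 730 and 966 to 970 CPM (10 genes), and those of stellate cells and fibroblasts, which include the vitamin A storing cells of the pancreas, to 463 to 622 and 653 to 943 CPM (10 genes). Each of these markers had counts in all 6 libraries. The acinar sums overlapped between the groups, while the endothelial and the stellate and fibroblast sums were lower in each knockout library. Of the 10 stellate and fibroblast genes, Col1a1, Col3a1 and Thy1 were called lower and 7 did not pass. Among those that did not pass, Dcn, Lum, Pdgfra, Des and Acta2 overlapped between the groups. Markers of beta cells summed to 132000 to 149000 and 175000 to 193000 CPM (10 genes), but without Ins1, left out after its values were seen, to 129000 to 143000 and 129000 to 141000 CPM (9 genes), which overlapped. Of the 10 beta cell genes, Slc2a2, Nkx6-1 and Pdx1 were called higher and Ins1, G6pc2 and Slc30a8 lower. Sums for alpha (26300 to 35000 and 37200 to 50300 CPM, 7 genes) and duct cells (318 to 344 and 348 to 410, 7 genes) were lower in each knockout library too, while those for delta cells (3580 to 5000 and 4080 to 6490, 3 genes), leukocytes (113 to 351 and 83.8 to 182, 8 genes) and Schwann cells (28.2 to 33.4 and 29.2 to 31.9, 5 genes) overlapped. In bulk islets fewer cells of a type and less RNA per cell cannot be told apart. How these shifts in markers bear on the retinoid genes was not tested. Some values are given from a fit with an acinar covariate, the mean log2 level of the acinar markers. This level went partly with genotype over the 6 libraries, so that fit cannot tell the effects of genotype and acinar level apart. It also called fewer genes, 871 higher and 715 lower against 1736 and 1864 without the covariate.

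Of the 8 genes tested, Aldh1a3 and Cyp26a1 were higher and Adh1 was lower in knockout islets (adjusted p under 0.05), and 5 did not pass. Across all 14770 genes tested 11.8% were called higher, 12.6% lower and 24.4% either way. Since the genes were chosen with this contrast in view, nothing is read from their count. For these 3 genes the groups did not overlap in any library, whereas they overlapped for the other 5 genes tested. Across all genes tested 42% had groups that did not overlap. The median log2 fold change was -0.11 over the 8 genes and -0.01 over all genes tested.

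**Figure D1:**
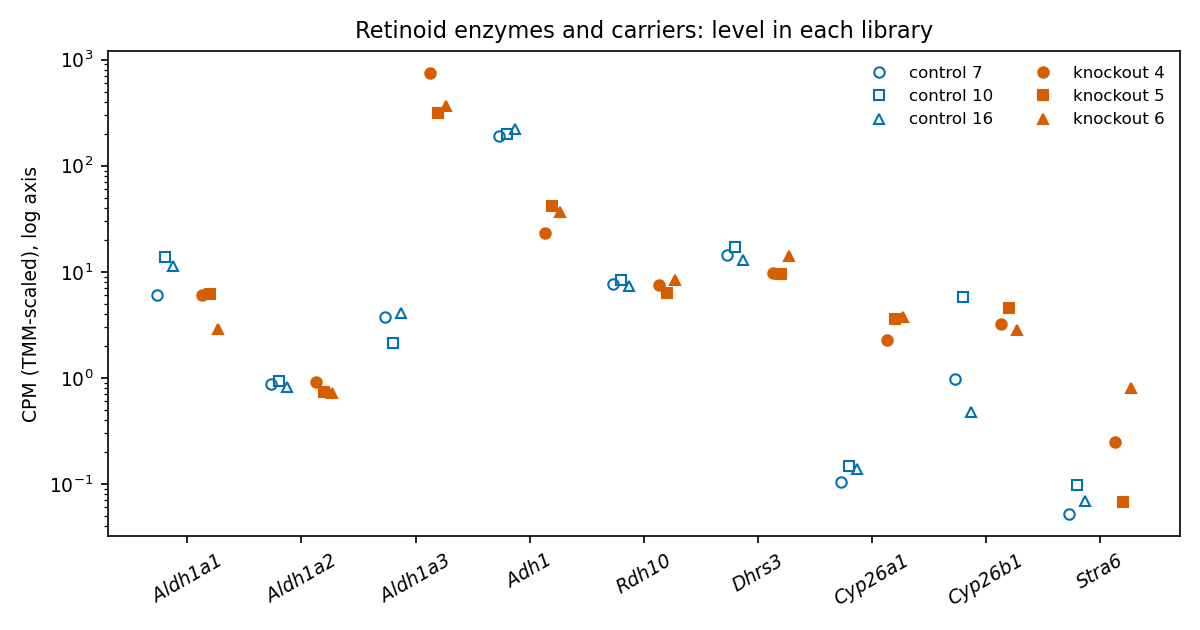
Level of each retinoid enzyme or carrier in each library, in CPM on a log axis. Open blue marks are the 3 control libraries and filled orange marks the 3 knockout libraries; Aldh1a3 and Cyp26a1 lie above and Adh1 below the controls in all 3 knockout libraries.

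The retinaldehyde dehydrogenases make the step that commits retinoid to retinoic acid. Aldh1a3 counts were 12230, 4669 and 4548 in knockout libraries 4, 5 and 6 against 73, 43 and 60 in control libraries 7, 10 and 16. Scaled, the knockouts were at 751, 313 and 365 CPM and the controls at 3.77, 2.11 and 4.12 CPM. Every knockout library lay far above every control library, and knockout library 4 was above the other knockouts. This was a 145-fold difference, 7.18 on the log2 scale (SE 0.56; adjusted p = 0.00131, edgeR), and it was in place 2 from the top of all genes tested. Without knockout library 4 it was 6.71 (adjusted p = 4.19e-05), and an acinar covariate brought it to 5.92 (adjusted p = 0.00201).

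Aldh1a1, a retinaldehyde dehydrogenase of many adult epithelia, went the other way without passing the test. Its levels were 6.08, 6.23 and 2.89 CPM in knockout libraries 4, 5 and 6 and 6.04, 13.7 and 11.3 CPM in control libraries 7, 10 and 16. Control library 7 lay among the knockouts, so the groups overlapped. The log2 fold change was -1.02 (SE 0.38, adjusted p = 0.0998 by edgeR). It passed with DESeq2 (-1.01, adjusted p = 0.026) and without control library 7 (-1.28, adjusted p = 0.0307). Aldh1a7, a near copy of Aldh1a1 whose reads could be shared with it, was counted 6, 16 and 11 times in the knockouts against 37, 33 and 20 times in the controls (-1.09, SE 0.41, adjusted p = 0.0839).

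Aldh1a2, the main retinaldehyde dehydrogenase of embryonic mesoderm, was near the limit of detection. Its counts were 15, 11 and 9 in knockout against 17, 19 and 12 in control libraries, or 0.723 to 0.921 and 0.823 to 0.932 CPM. The groups overlapped, and the difference was -0.14 (SE 0.34, adjusted p = 0.794). Markers of mesothelium, a mesodermal lining of organs, summed to 0.335 to 2.7 CPM in knockout and 0.618 to 1.03 in control libraries (4 genes). Of the 4 genes 3 were at 0 in at least 1 library. Whether these markers bear on the level of Aldh1a2 was not tested.

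The makeup of the Aldh1a group differed between the genotypes. Levels can be compared between genes only per length, so CPM was divided by the length in kb of all annotated protein-coding exons (GENCODE M21, GRCm38). The exons that the authors counted are not known here, so these levels are approximate. Aldh1a1 held 67.1%, 86.6% and 78.5% of the summed Aldh1a1, Aldh1a2 and Aldh1a3 level in control libraries 7, 10 and 16, where Aldh1a3 held 22.6%, 7.21% and 15.4%. In knockout libraries 4, 5 and 6 Aldh1a3 held 98.3%, 96% and 98.2%. Aldh1a1 was the leading form in each control library and Aldh1a3 in each knockout library. The shift in shares came mainly from the rise of Aldh1a3 and is no separate result. Mean Aldh1a3 went from 0.751 CPM per kb in control to 107 in knockout libraries. Mean Aldh1a1 went from 4.32 to 2.12, with groups that overlapped.

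**Figure D2:**
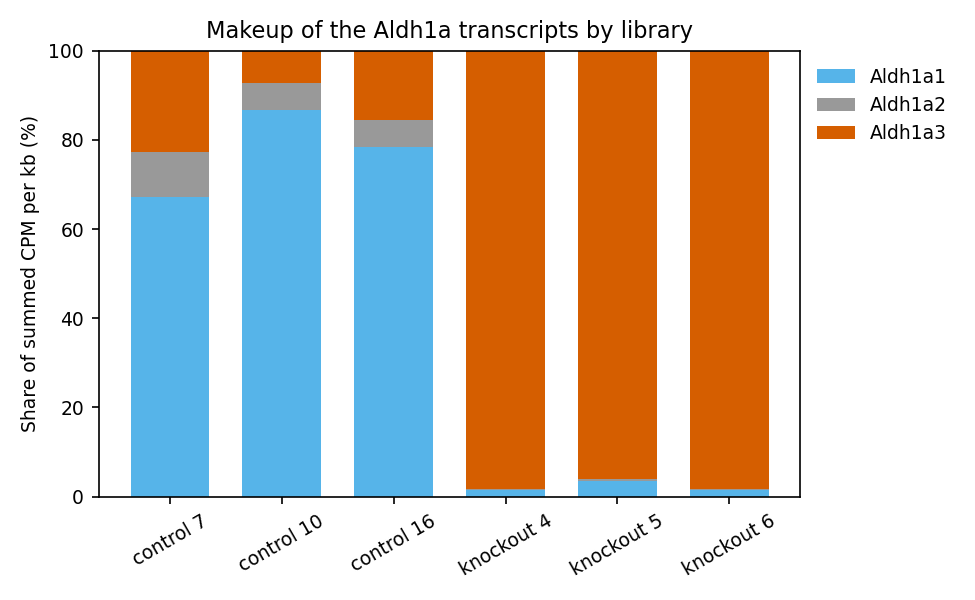
Share of the summed Aldh1a1, Aldh1a2 and Aldh1a3 level per kb of exon (%), with 1 bar per library. Aldh1a1 fills 67.1% to 86.6% of the control bars and Aldh1a3 fills 96% to 98.3% of the knockout bars; Aldh1a2 is the thin grey part.

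The enzymes before this step act on retinol and retinaldehyde. Adh1, a class I alcohol dehydrogenase that oxidises retinol as well as ethanol, was counted 380, 624 and 457 times in the knockouts and 3682, 4060 and 3243 times in the controls. These were 23.3, 41.8 and 36.7 CPM against 190, 199 and 223 CPM. The groups lay far apart, and the control libraries were close to each other. Adh1 was 6.02-fold lower in the knockout, -2.59 on the log2 scale (SE 0.21), with adjusted p = 0.000493 (edgeR) and place 33 from the bottom of all genes tested. The acinar covariate gave -2.41 (adjusted p = 0.0151).

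Rdh10, the retinol dehydrogenase that the embryo depends on, was at 7.43, 6.3 and 8.36 CPM in the knockout and 7.59, 8.44 and 7.34 CPM in the control. The ranges overlapped almost wholly (log2 difference -0.09, SE 0.16, adjusted p = 0.731). Dhrs3, which reduces retinaldehyde to retinol and is also a textbook gene induced by retinoic acid, was at 9.76, 9.45 and 14.0 CPM in knockout libraries 4, 5 and 6 and 14.5, 17.0 and 13.0 CPM in control libraries 7, 10 and 16. Knockout library 6 lay among the controls and the other knockouts below them. The log2 difference was -0.43 (SE 0.17, adjusted p = 0.107), and without knockout library 6 it was -0.61 with an adjusted p of 0.0281.

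The Cyp26 enzymes clear retinoic acid. Cyp26a1 counts were 37, 53 and 47 in the knockouts but 2, 3 and 2 in the controls. In CPM these were 2.27, 3.55 and 3.78 against 0.103, 0.147 and 0.137. All knockout libraries lay above all controls, and knockout library 4, the highest for Aldh1a3, was the lowest of the knockouts for Cyp26a1. The control rested on 7 counts in all against 137 in the knockout, a ratio of 24.4 (exact 95% Poisson interval 11.5 to 61.7, for counting error only). The fitted log2 fold change was 4.55 (SE 0.41, adjusted p = 0.000151 by edgeR), place 14 from the top of all genes tested, and 5.16 (adjusted p = 0.00281) with the acinar covariate. Whether the paired half-sites in the promoter window of this gene, shown above, bear on its level was not tested.

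Cyp26b1, the family member that limits retinoic acid in the developing limb and testis, was spread widely in the controls. Its counts were 52, 68 and 35 in the knockouts against 19, 119 and 7 in control libraries 7, 10 and 16. These were 3.19, 4.56 and 2.81 CPM in the knockout and 0.981, 5.84 and 0.48 CPM in the control. Control library 10 was above all knockouts, and the other controls were below them. The log2 difference was 0.50 (SE 0.86, adjusted p = 0.718), and without control library 10 it was 2.23 with an adjusted p of 0.014, so this 1 library decided the call. Cyp26c1, the third member of the family, was counted 2, 11 and 4 times in the knockouts against 0, 0 and 2 times in the controls. That is a ratio of 10.6 (exact 95% Poisson interval 2.51 to 94.4, counting error only), of which knockout library 5 gave most. In CPM knockout library 4 (0.123) lay below control library 16 (0.137), so the groups overlapped. Cyp26c1 was too low to be tested and is named here after its values were seen.

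Stra6, the membrane receptor that takes up retinol from its plasma carrier, was counted 4, 1 and 10 times in knockout libraries 4, 5 and 6 against 1, 2 and 1 times in the controls. Knockout library 5 lay among the controls. The summed counts were 15 and 4, a ratio of 4.67 (exact 95% Poisson interval 1.49 to 19.3, counting error only), of which knockout library 6 gave most.

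Per kb of exon, the control order was Adh1 (137 ± 11.2 CPM per kb), Dhrs3 (6.11 ± 0.835), Aldh1a1 (4.32 ± 1.63), Rdh10 (2.17 ± 0.16), Aldh1a3 (0.751 ± 0.242), Cyp26b1 (0.455 ± 0.553), Aldh1a2 (0.388 ± 0.024), Cyp26a1 (0.0721 ± 0.0128) and Stra6 (0.02 ± 0.00645), each mean ± SD with n = 3. Dhrs3 and Aldh1a1 overlapped between libraries, as did Aldh1a3 and Cyp26b1, and Cyp26b1 and Aldh1a2. The other neighbours in this order did not overlap. Cyp26a1 (2, 3 and 2 counts) and Stra6 (1, 2 and 1 counts) were near the counting floor in the controls, so their order is uncertain. In the knockout the order was Aldh1a3 (107 ± 54 CPM per kb), Adh1 (22.8 ± 6.4), Dhrs3 (4.57 ± 1.04), Aldh1a1 (2.12 ± 0.787), Rdh10 (2.05 ± 0.287), Cyp26a1 (1.79 ± 0.453), Cyp26b1 (0.658 ± 0.171), Aldh1a2 (0.351 ± 0.0488) and Stra6 (0.102 ± 0.105). Here Aldh1a1, Rdh10 and Cyp26a1 overlapped with each other and the other neighbours did not. Adh1 led in the control and Aldh1a3 in the knockout.

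In the authors' deposited table, made with DESeq, the log2 fold changes were 7.17 for Aldh1a3 (adjusted p = 3.31e-09), 4.65 for Cyp26a1 (adjusted p = 4.31e-12) and -2.57 for Adh1 (adjusted p = 9.12e-70). The authors' deposited table had none of the other 6 genes under an adjusted p of 0.05, with Dhrs3 at 0.169 and Aldh1a1 at 0.217. These are the same libraries and so no separate evidence.

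**Figure D3:**
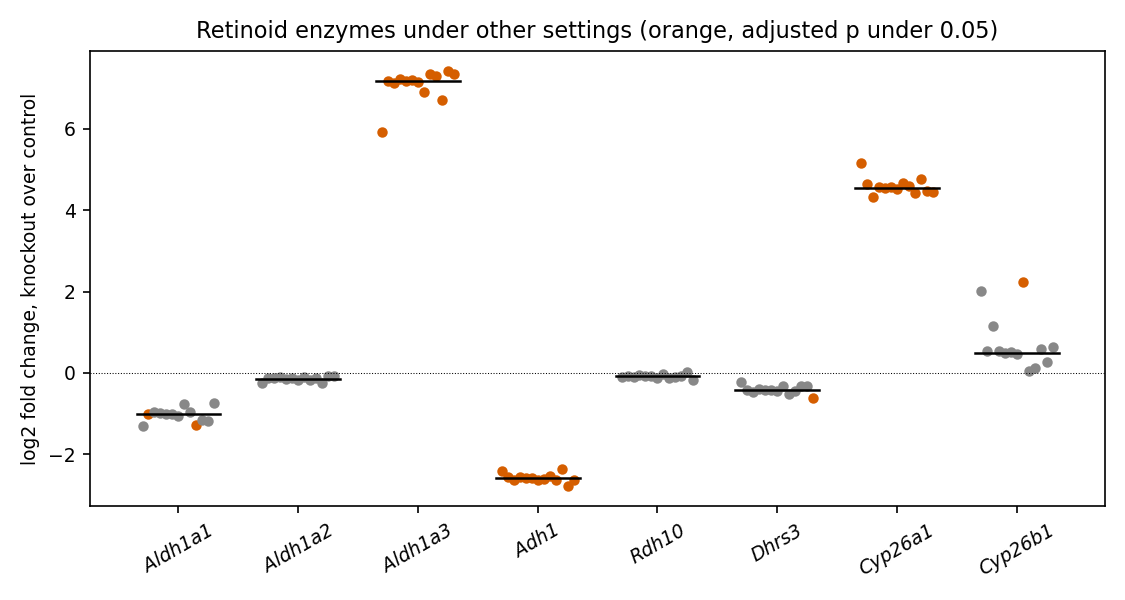
Log2 fold change (knockout over control) of the 8 genes tested under 13 other settings, as points, with the reported value as a black line; orange points have an adjusted p under 0.05. Aldh1a3, Cyp26a1 and Adh1 passed at all points, while Cyp26b1 ranged from 0.04 to 2.23.

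Among the other carriers and storage genes of retinoids, Crabp1 and Rbp4 rose and Rbp7 fell. Of 13 carrier and storage genes 12 were matched and 7 tested, of which 2 were higher, 1 was lower and 4 did not pass (median log2 fold change -0.09), where 24.4% of all genes were called either way. With so few genes a list, nothing is read from a count beside that share, here or for the lists that follow. Crabp1, a cytosolic carrier of retinoic acid, was counted 18, 19 and 8 times in the knockouts against 1, 1 and 0 times in the controls, a ratio of 28 (exact 95% Poisson interval 7.31 to 238, counting error only; adjusted p = 0.00219 by edgeR). Without knockout library 4 it had too few counts to be tested. Rbp7, a retinol-binding protein of endothelium and fat, fell from 32.4 ± 8.79 to 15.5 ± 1.55 CPM (mean ± SD, n = 3 a group here and throughout; -1.06, SE 0.20, adjusted p = 0.00766), beside the lower endothelial sum given above, whose part in this was not tested. Rbp4, the plasma carrier that brings retinol to Stra6 and that is also on the delta cell list, rose from 192 ± 20.5 to 267 ± 40.3 CPM (log2 fold change 0.48, SE 0.13, adjusted p = 0.0253). Rbp4 missed the threshold with the acinar covariate or when knockout library 4 or 5 or control library 7 or 10 was left out (highest adjusted p = 0.271). The storage enzyme Lrat was counted 1, 5 and 3 times in the knockouts against 0, 7 and 1 times in the controls and was not tested.

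The remaining retinol and retinaldehyde enzymes split. Of 25 genes 13 were tested, 2 were higher, 2 were lower and 9 did not pass (median log2 fold change -0.16). Dhrs4, a peroxisomal reductase of retinaldehyde and other carbonyls, fell from 33.7 ± 2.2 to 18.3 ± 0.67 CPM (-0.88, SE 0.09, adjusted p = 0.000253). Rdh14, a retinol dehydrogenase, rose from 27.2 ± 0.982 to 41.1 ± 0.103 CPM (0.59, SE 0.07, adjusted p = 0.000626). The groups did not overlap for either. Dhrs7, a short-chain dehydrogenase of retinoids and steroids, rose by less (0.36, SE 0.08) and missed the threshold with the acinar covariate (0.31, adjusted p = 0.134). Adh7, the class IV alcohol dehydrogenase that oxidises retinol, was counted 1, 5 and 2 times in the knockouts and 18, 17 and 13 times in the controls. It thus lay on the same side as Adh1 (-2.22, SE 0.54, adjusted p = 0.0186), but missed the threshold with the acinar covariate or when knockout library 4 or 6 or control library 7 or 10 was left out (highest adjusted p = 0.215).

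Retinoic acid acts through heterodimers of the receptors Rara, Rarb and Rarg with Rxra, Rxrb and Rxrg. All 6 were tested, of which 2 were lower, 0 were higher and 4 did not pass (median -0.04). Rara fell from 19.3 ± 0.781 to 12.7 ± 0.683 CPM (-0.60, SE 0.10, adjusted p = 0.00279), and Rarg from 32.7 ± 2.15 to 24.2 ± 1.98 CPM (-0.43, SE 0.09, adjusted p = 0.0107). Rarg missed the threshold with the acinar covariate (-0.43, adjusted p = 0.117). Rarb, which retinoic acid induces in many cells, was at 1.07 to 2.01 CPM in the knockout and 0.961 to 1.65 in the control (0.30, SE 0.36, adjusted p = 0.574). Its groups overlapped.

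Among textbook target genes of retinoic acid outside the 9 genes, Tgm2, Hoxa3 and Meis1 were lower. Of 15 such genes 10 were tested, 0 were higher, 3 were lower and 7 did not pass, with a median log2 fold change of -0.33, against -0.01 over all genes tested. Since 11.8% of all genes were called higher and 12.6% lower, a count of 0 higher in 10 is close to the background. Cyp26a1, which was called higher, and Dhrs3, which did not pass, are textbook targets too but are among the 9. At an unadjusted p under 0.05 the edgeR fit had 0 of the 10 higher and 3 lower. Of all 14770 genes tested it had 2638 higher and 2899 lower at that threshold. By adjusted p 0 of the 10 were called higher by DESeq2, by limma-voom or in any other setting tried. These fits used the same libraries and so are no separate evidence. The transglutaminase Tgm2 fell from 38.1 ± 8.44 to 22.1 ± 1.64 CPM (-0.79, SE 0.16, adjusted p = 0.0115). Hoxa3 (-1.18, adjusted p = 0.0371) and Meis1 (-0.32, adjusted p = 0.0322), both homeobox genes, were lower too, and each missed the threshold in 9 of 13 other settings, over which they stayed at -1.246 to -0.999 and -0.42 to -0.27. Tgm2 is also made by endothelial and stromal cells, whose marker sums were lower here, and their part in its fall was not tested. This list overlaps those of the receptors and carriers, with Rarb, Crabp2 and Lrat among the shared genes.

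No gene called in the wider aldehyde dehydrogenase family rose as much as Aldh1a3. Of 17 further genes 14 were tested, 1 was higher, 3 were lower and 10 did not pass (median -0.23). Aldh1l2, a mitochondrial enzyme of folate metabolism, fell from 90.4 ± 26.6 to 18.3 ± 5.89 CPM (-2.32, SE 0.32, adjusted p = 0.00611). Aldh3a2, which oxidises fatty aldehydes, rose from 92.0 ± 6.36 to 132 ± 2.58 CPM (0.52, SE 0.07, adjusted p = 0.00115). Aldh2, the mitochondrial acetaldehyde dehydrogenase (-0.36, SE 0.08), and Aldh18a1, an enzyme of proline synthesis (-0.64, SE 0.12), fell as well. With the acinar covariate the 3 genes that fell all missed the threshold with smaller differences of the same sign (Aldh1l2 at -1.70, Aldh2 at -0.30 and Aldh18a1 at -0.43, adjusted p = 0.0826, 0.18 and 0.19), in a fit that called fewer genes overall.

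**Figure D4:**
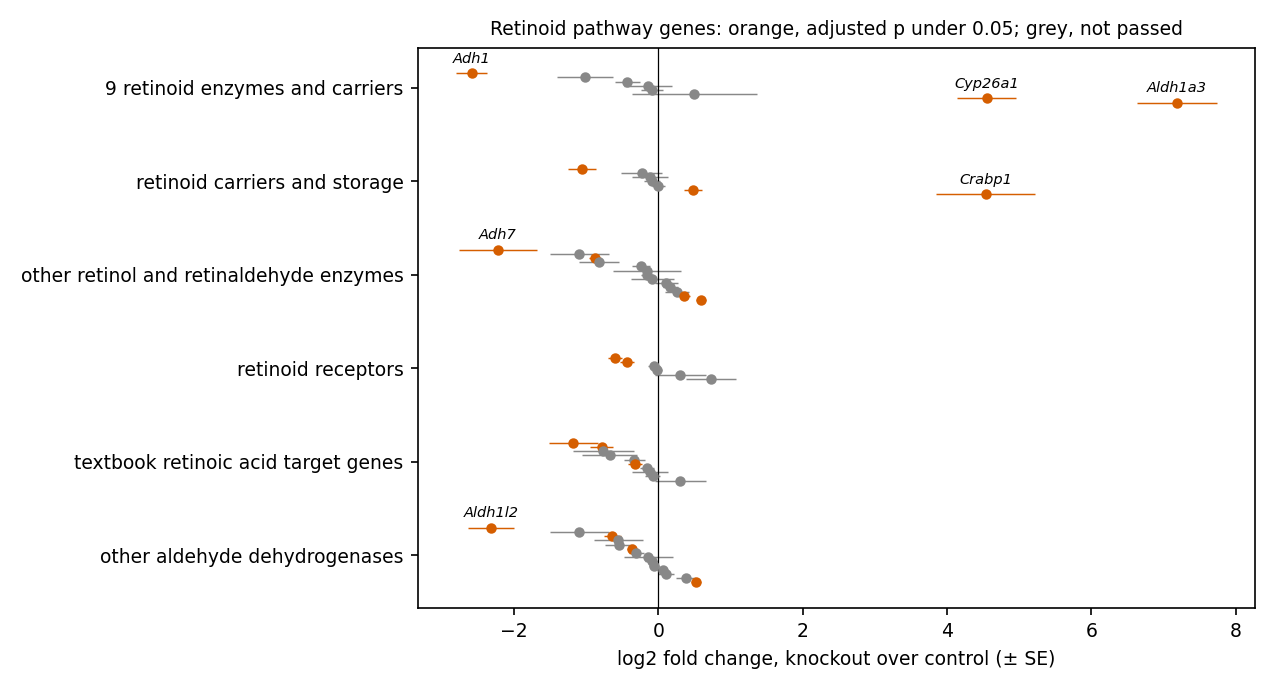
Log2 fold change (knockout over control, ± SE) of each tested gene, by list. Orange points have an adjusted p under 0.05 and grey points do not; Aldh1a3 (7.18), Cyp26a1 (4.55) and Crabp1 lie far to the right of the rest, and Adh1 (-2.59), Aldh1l2 (-2.32) and Adh7 (-2.22) to the left.

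Of the genes that averaged 5 CPM or more in their higher group, those whose pattern over the 6 libraries was most like that of Aldh1a3 were Lrrc55, Adamts16 and Kcnk9. The measure was the root mean square difference of log2 CPM, each gene set to its control mean, which was 0.72 for Lrrc55, 1.07 for Adamts16 and 1.37 for Kcnk9. Lrrc55, an auxiliary subunit of potassium channels, was at 265, 231 and 223 CPM in the knockouts against 0.93, 2.31 and 3.57 CPM in the controls. It was less uneven among the knockouts than Aldh1a3. The measure takes in the difference between the groups, so for Aldh1a3 it picks genes with a large rise. Among the knockouts Aldh1a3 and Lrrc55 were highest in library 4, but Adamts16 and Kcnk9 were highest in library 5. Whether these genes share any regulation was not tested.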

How the data were processed

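RNA of isolated islets was measured in 3 knockout and 3 control libraries, grouped by title. Per the labels' protocols, islets were picked by hand after a density gradient, and TruSeq libraries were read single-end. The authors deposited 1 file of raw gene counts for every library. A table of their comparison, also deposited, gives the mean scaled counts of each group (a signal per gene), the ratio of the means, the same as log2, and p-values. Tools named per the submitters' processing notes are TopHat2 2.1.0, Cufflinks 2.0.2, bcl2fastq 1.8.4 and DESeq, on build mm9. No source used here says how reads were assigned to genes and strands, and overlapping genes and near copies such as Aldh1a1 and Aldh1a7 are uncertain.

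In R 4.3.3, edgeR 4.0.16 was fitted on all genes that passed filterByExpr (minimum count 10, minimum total 15), 14770 of 23284. TMM factors, robust dispersions, the quasi-likelihood F test (two-sided) and Benjamini-Hochberg adjustment over all genes tested were used, with a threshold of 0.05. SEs came from the same fit. Replicate pairs differed by 15.9 to 41.5 chi-square per degree of freedom, so no library repeated another. Low genes rest on few counts, and their exact intervals cover counting error only, not the spread between libraries. The alternatives were RLE and upper-quartile factors, DESeq2 1.42.0, limma-voom (limma 3.58.1), no filter, no robust estimation, an acinar covariate and each library left out.

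Genes and lists were chosen with earlier results of these data known. Named genes are the 9 retinoid genes, Neurod1, each list's genes past the threshold and 3 genes most like Aldh1a3. Aldh1a7, Cyp26c1, Lrat and Rarb fall outside this rule and were named after their values were seen. Lists gave counts and medians only. Protein sequences, planned for a comparison of near copies, were not used here. Of the list symbols 1, Stra6l, was not matched. Promoters are RefSeq's (GRCm38.p6), with an entry for 7 of the 9 genes. Apart from the promoter windows of Cyp26a1 and Cyp26b1, no gene coordinates are given, since the files use mm9.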

Additional observations from a re-analysis of the deposited data

How the results depend on the processing

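Aldh1a3 and Cyp26a1 stayed higher and Adh1 lower, past the threshold, in all 13 other settings, with log2 fold changes of 5.92 to 7.41, 4.31 to 5.16 and -2.77 to -2.36 and adjusted p-values up to 0.01, 0.00281 and 0.0151. The number of retinoid genes called lower was 2 with DESeq2, which added Aldh1a1, and 1 to 2 when 1 library was left out (2 without control library 7, which added Aldh1a1, or without knockout library 6, which added Dhrs3). The number called higher was 3 without control library 10, which added Cyp26b1. Rdh10 lay at -0.17 to 0.015 without single libraries and turned sign without knockout library 5 (adjusted p = 0.962). Over all genes, 871 were higher and 715 lower with the acinar covariate, and 1153 to 1590 were higher and 1225 to 1433 lower when 1 library was left out, lowest without control library 10. The cause of these shifts was not tested. Of 104 values of the 8 genes over the other settings 99 kept their direction and side of the threshold, as did 252 of 285 values of 22 other tested genes that are named, where 33 missed the threshold. Depth limits Stra6, Cyp26c1, Crabp1 and the Cyp26a1 controls. No paired analysis was possible because the groups share no replicate number.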
